A study of Mus musculus with 9 samples.

Results

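Transcripts of 10 chemokine genes of the CXC and CC families were followed in D2A1-d mouse breast carcinoma cells: Cxcl1, Cxcl2, Cxcl5, Cxcl10, Cxcl12, Cxcl16, Ccl2, Ccl5, Ccl7 and Ccl20. These genes were picked by name from 55335 gene identifiers, all 10 passed the filter on low counts, and the list cites no measured value. It was, however, drawn up with earlier results of the same libraries known, so every contrast of these genes is given as a description of the spread between libraries and supports nothing further. All groups were the same cell line, labelled untreated and grown in serum-supplemented medium, and all cells had been transduced with a hairpin. In the shMed4 #1 and shMed4 #4 groups the short hairpin RNA targeted Med4 (genotype label Med4 Knockdown), which encodes a subunit of Mediator, the coactivator complex between DNA-bound transcription factors and RNA polymerase. In the NTC group the hairpin was a non-targeting control, and the libraries were labelled with the genotype WT. Each group had 3 libraries of total RNA numbered as biological replicates. The labels do not say whether these were separate transductions or separate cultures, so the p-values cover only the spread among these libraries, which may be technical. The cells are 1 line, and in such bulk RNA fewer cells expressing a gene and less RNA per cell cannot be told apart.

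Chemokines are small secreted proteins that attract leukocytes through receptors coupled to G proteins, and they are named for the spacing of their first cysteines. Cxcl1, Cxcl2 and Cxcl5 attract neutrophils through Cxcr2, Cxcl10 attracts T and NK cells through Cxcr3, and Ccl2, Ccl5 and Ccl7 attract monocytes, T cells and other leukocytes through CC receptors. Many of their promoters are bound by NF-kB, and Cxcl10 is also a classical target of interferon signalling, whereas Cxcl12 is widely made without an inflammatory stimulus. Tumour cells are a common source of several of these ligands, and in breast tumours Ccl2 and Cxcl12 are among those most studied.

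The promoters printed here show which of the motifs of those pathways stand in front of genes that followed different patterns, in RefSeq sequence of GRCm38.p6. Each runs over the 250 bases before the RefSeq start on the gene's own strand, and 5 of the 10 genes, Cxcl1, Cxcl2, Cxcl10, Cxcl12 and Ccl20, matched an entry. Cxcl3, a ligand that is not among the 10, is shown because it lies between Cxcl5 and Cxcl1. In Cxcl1, Cxcl2 and Cxcl3 the capitals mark matches to the kappaB consensus bound by NF-kB. In Cxcl10 they also mark an interferon response element (GAAA, any 2 bases, GAAA) and an AP-1 site (TGANTCA), and in Cxcl12 they mark GC boxes (GGGCGG, or CCGCCC where it lies on the other strand), with an overlapping pair written as 1 run.
Cxcl1, chr5:90890995-90891244, plus strand: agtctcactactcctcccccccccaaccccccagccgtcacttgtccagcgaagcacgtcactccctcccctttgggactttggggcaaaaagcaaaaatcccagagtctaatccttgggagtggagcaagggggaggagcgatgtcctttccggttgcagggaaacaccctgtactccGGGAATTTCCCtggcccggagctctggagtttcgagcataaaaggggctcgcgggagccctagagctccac
Cxcl2, chr5:90903649-90903898, plus strand: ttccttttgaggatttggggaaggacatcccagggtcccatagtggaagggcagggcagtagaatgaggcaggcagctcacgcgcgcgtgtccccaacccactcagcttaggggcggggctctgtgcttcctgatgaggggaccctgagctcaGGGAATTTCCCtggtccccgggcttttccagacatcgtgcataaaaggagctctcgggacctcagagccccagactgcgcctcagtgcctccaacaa
Cxcl3, chr5:90785851-90786100, plus strand: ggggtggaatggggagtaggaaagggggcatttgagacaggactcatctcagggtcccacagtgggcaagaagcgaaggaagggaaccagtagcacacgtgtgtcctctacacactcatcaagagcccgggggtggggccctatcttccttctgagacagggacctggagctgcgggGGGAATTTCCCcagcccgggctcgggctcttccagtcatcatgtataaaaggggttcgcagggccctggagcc
Cxcl10, chr5:92348890-92349139, minus strand: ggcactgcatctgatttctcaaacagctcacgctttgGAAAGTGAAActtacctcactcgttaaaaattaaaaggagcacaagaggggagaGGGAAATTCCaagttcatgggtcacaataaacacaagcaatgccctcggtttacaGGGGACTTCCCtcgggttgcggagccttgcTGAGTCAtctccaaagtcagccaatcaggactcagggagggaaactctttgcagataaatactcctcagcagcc
Cxcl12, chr6:117168285-117168534, plus strand: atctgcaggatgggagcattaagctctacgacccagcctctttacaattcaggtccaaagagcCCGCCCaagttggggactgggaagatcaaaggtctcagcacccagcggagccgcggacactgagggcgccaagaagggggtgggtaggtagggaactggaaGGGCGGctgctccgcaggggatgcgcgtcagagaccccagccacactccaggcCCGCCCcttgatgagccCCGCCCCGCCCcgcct

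The same run, GGGAATTTCCC, began 71 bases before the start of Cxcl1, 97 bases before that of Cxcl2 and 73 bases before that of Cxcl3. It holds the kappaB consensus on both strands, in overlapping positions. The consensus searched was GGG, a purine, any 2 bases, 2 pyrimidines and CC, on both strands, and 7.25% of 32851 promoters of the same length held it. Cxcl10 had kappaB matches 159 and 104 bases before its start, an interferon response element 213 bases before (2.98% of promoters) and an AP-1 site 74 bases before (6.75% of promoters). Ccl20 had a kappaB match, GGAAAACCCC, 80 bases before its start. In the Cxcl12 window none of the letters searched for kappaB, interferon or AP-1 motifs occurred, and it held 5 GC boxes, a motif present in 32.7% of promoters. Cxcl2 also held a GC box, left in lower case. A match is a match of letters in this window and was not read as a bound site.

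Libraries held 7572114 to 8582235 reads assigned to genes, and 14335 genes were tested. Med4 itself had 40, 35 and 38 reads in the shMed4 #1 libraries and 66, 60 and 50 in the shMed4 #4 libraries, against 236, 216 and 204 in the NTC libraries. Its log2 fold change with shMed4 #1 was -2.59 (SE 0.14, edgeR adjusted p = 3.92e-18) and -1.92 with shMed4 #4 (SE 0.13, edgeR adjusted p = 8.44e-16). Of 16 leukocyte markers, 9 had at most 10 reads over all 9 libraries (0 for Cd3e, Itgax, Ly6g and S100a9), and Ptprc, which marks leukocytes at large, had 12. Others of the list were present, with 769 reads of Csf1r, 274 of Cd68, 151 of Lyz2 and 131 of S100a8. Summed over the leukocyte list the level was 16.3 to 17.2 CPM (counts normalised for depth with TMM factors) with shMed4 #1 and 17.4 to 18.7 CPM with shMed4 #4, against 23.0 to 29.8 CPM in NTC. The fibroblast sum over 8 markers was 227 to 241 CPM with shMed4 #1 and 213 to 230 CPM with shMed4 #4, against 260 to 293 CPM in NTC. Within it Pdgfra and Pdgfrb were lower with both hairpins and Col1a1 was higher, at 46.4 ± 4.0 CPM with shMed4 #1 and 51.5 ± 2.4 CPM with shMed4 #4, against 15.5 ± 1.1 CPM in NTC (SD, n = 3 each, log2 fold changes 1.59, edgeR adjusted p = 7.87e-17, and 1.73, edgeR adjusted p = 1.55e-18). Fap had 0 reads and Lum 1. Of the defining epithelial markers, Epcam had 1 read and Cdh1 and Esrp1 had 0 in all 9 libraries. The sum of 10 epithelial markers, carried by Krt8 and Krt18, averaged 101 ± 9.4 CPM with shMed4 #1 and 187 ± 13 CPM with shMed4 #4, against 24.6 ± 0.6 CPM in NTC (SD, n = 3 each). The endothelial sum over 6 markers was 2.73 to 3.93 CPM with shMed4 #1 and 2.07 to 3.10 CPM with shMed4 #4, against 1.29 to 1.87 CPM in NTC. It was carried mainly by Cdh5, with 62 reads with shMed4 #1 and 55 with shMed4 #4, against 20 in NTC. Pecam1 had 13 and 10 reads against 12, in the same order, Kdr had 1 in all, and Tie1 and Emcn had 0. The part of these markers in the chemokine values was not tested.

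Against NTC, the chemokines fell into different patterns. With shMed4 #1, 6 of the 10 were higher (Cxcl1, Cxcl10, Cxcl12, Cxcl16, Ccl5 and Ccl7) and 2 were lower (Cxcl5 and Ccl2) at an edgeR adjusted p under 0.05. Over all genes tested in that comparison, 21.8% were higher and 19.8% lower (41.6% in either direction). With shMed4 #4, 3 were higher (Cxcl1, Cxcl10 and Ccl5) and 4 lower (Cxcl5, Cxcl12, Cxcl16 and Ccl2), where 27.8% of all genes were higher and 27.3% lower (55.1% in either direction). Compared directly, shMed4 #4 was lower than shMed4 #1 for 8 of the 10 and higher for 0, against 13.9% of all genes lower and 14.2% higher (28.0% in either direction), and the 2 not called, Cxcl2 and Ccl20, also had estimates below 0. The members called were also those whose groups did not overlap, 8 of 10 in the direct comparison against 20.2% of all genes non-overlapping and lower. In the contrasts with NTC, 25.2% of all genes were non-overlapping and higher and 23.9% lower with shMed4 #1, and 29.8% were higher and 29.8% lower with shMed4 #4. The 6 higher with shMed4 #1 than in NTC were all lower with shMed4 #4 than with shMed4 #1, which held for 3.27% of all genes tested. Since the genes were chosen with these contrasts known, nothing is read from these counts. The median log2 fold change of the 10 was 0.67 for shMed4 #1 minus NTC, -0.15 for shMed4 #4 minus NTC and -0.83 for shMed4 #4 minus shMed4 #1, and the median of all genes tested lay within 0.0132 of 0 in each. Both hairpins were set against the same 3 NTC libraries, so their contrasts with NTC are not independent.

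**Figure D1:**
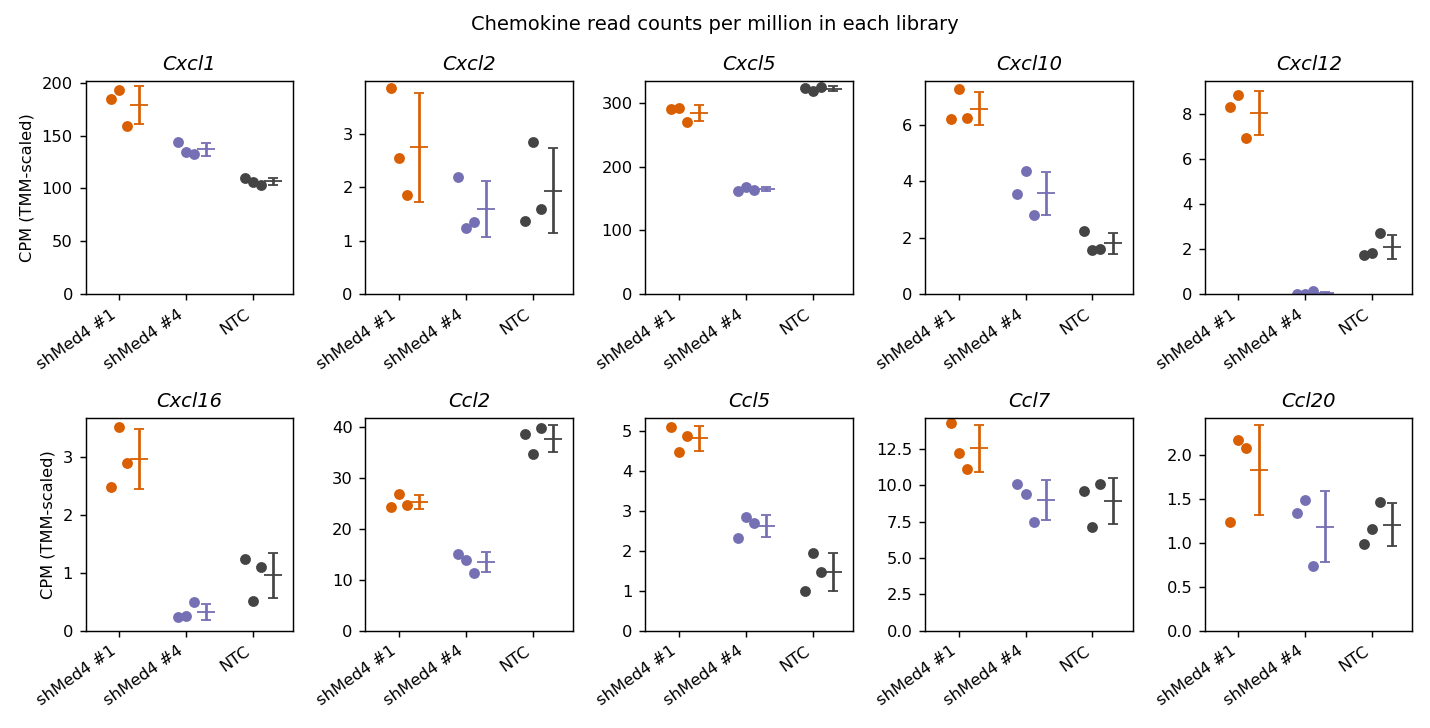
Level of each of the 10 chemokines in CPM (linear axis from 0, a scale of its own in each panel) in the 3 libraries of each group (points), with the mean and SD beside them. Cxcl1, Cxcl10 and Ccl5 stand highest with shMed4 #1 and lowest in NTC, Cxcl5 and Ccl2 stand highest in NTC and lowest with shMed4 #4, and Cxcl12 and Cxcl16 lie at or under 0.490 CPM with shMed4 #4.

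Among the ligands of Cxcr2, Cxcl1 (ENSMUSG00000029380.11, chromosome 5, 90891241 to 90893115 on the plus strand of GRCm38, protein-coding) rose with both hairpins, and more with shMed4 #1. Its level was 184, 194 and 159 CPM in the shMed4 #1 libraries and 144, 135 and 133 CPM in the shMed4 #4 libraries, against 110, 106 and 103 CPM in the NTC libraries. The 3 groups did not overlap, with every shMed4 #1 library above every shMed4 #4 library and these above every NTC library. Means were 179 ± 18 CPM with shMed4 #1 and 137 ± 6.0 CPM with shMed4 #4, against 107 ± 3.5 CPM in NTC (SD, n = 3 each). The fitted rise was 1.68-fold with shMed4 #1 (log2 fold change 0.75, SE 0.06, edgeR adjusted p = 1.17e-12) and 1.29-fold with shMed4 #4 (0.36, SE 0.06, edgeR adjusted p = 6.46e-06). Between the hairpins the difference, shMed4 #4 minus shMed4 #1, was -0.38 (SE 0.06, edgeR adjusted p = 4.76e-06). The tested neighbours of Cxcl1 (25 on each side) had a median shift of 0.20 with shMed4 #4, and with that shift removed its log2 fold change against NTC was 0.16.

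Cxcl5 (ENSMUSG00000029371.7, chromosome 5, 90759360 to 90761624, plus strand, protein-coding), another neutrophil attractant, went the other way. Its level was 292, 292 and 270 CPM with shMed4 #1 and 162, 168 and 164 CPM with shMed4 #4, against 324, 319 and 326 CPM in NTC. The shMed4 #4 libraries stood far under the rest, at 0.510 of the NTC level in the fit, and the shMed4 #1 libraries lay just under NTC without overlap. The log2 fold change with shMed4 #4 was -0.97 (SE 0.05, edgeR adjusted p = 1.03e-18) and -0.18 with shMed4 #1 (SE 0.05, edgeR adjusted p = 0.00276). Removing the median shift of its neighbours, 0.19 with shMed4 #1, gave -0.37 for shMed4 #1. Compared directly, shMed4 #4 was lower than shMed4 #1, with a difference of -0.79 on the log2 scale (SE 0.05, edgeR adjusted p = 4.29e-15).

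Cxcl2 (ENSMUSG00000058427.10, chromosome 5, 90903871 to 90905938, plus strand, protein-coding), also a Cxcr2 ligand, was scarce. It had 31, 21 and 16 reads with shMed4 #1 and 18, 10 and 11 reads with shMed4 #4, against 11, 22 and 13 reads in NTC. The 3 groups overlapped, and no contrast passed the threshold. The log2 fold change with shMed4 #1 was 0.50 (95% interval -0.12 to 1.12, edgeR adjusted p = 0.214) and -0.27 with shMed4 #4 (-0.97 to 0.44, edgeR adjusted p = 0.555), and the direct difference was -0.77 (-1.41 to -0.12, edgeR adjusted p = 0.0791). Of its 50-base stretches, 5.84% also occur in Cxcl3, and a read that lies wholly in shared sequence cannot be placed uniquely. How many of its reads this concerned was not measured. Leaving out shMed4 #1 replicate 3 or shMed4 #4 replicate 1 brought the direct difference past the threshold (edgeR adjusted p = 0.0377 and 0.0416), and leaving out shMed4 #1 replicate 1 brought it to -0.45 (edgeR adjusted p = 0.413). With single libraries left out, the value with shMed4 #1 ranged from 0.19 to 0.87.

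Among the ligands that attract T cells, Cxcl10 (ENSMUSG00000034855.13, chromosome 5, 92346638 to 92348889, minus strand, protein-coding), which binds Cxcr3, rose with both hairpins. It had 50, 60 and 54 reads with shMed4 #1 and 29, 35 and 23 reads with shMed4 #4, against 18, 12 and 13 reads in NTC. No library of a group reached into the next group. Means were 6.57 ± 0.59 CPM with shMed4 #1 and 3.57 ± 0.76 CPM with shMed4 #4, against 1.79 ± 0.38 CPM in NTC (SD, n = 3 each). The rise was 3.64-fold with shMed4 #1 (log2 fold change 1.86, SE 0.24, edgeR adjusted p = 4.64e-08) and 1.98-fold with shMed4 #4 (0.98, SE 0.27, edgeR adjusted p = 0.00234). The direct difference was -0.88 (SE 0.20, edgeR adjusted p = 0.00111). Exons of Art3 on the other strand cover 5.91% of the Cxcl10 exons, and Art3 had 41 reads in all with shMed4 #1 and 17 with shMed4 #4, against 11 in NTC. Whether counting used the strand is not given in the sources used here, so reads of the pair in that stretch cannot be told apart.

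Ccl5 (ENSMUSG00000035042.2, chromosome 11, 83525778 to 83530518, minus strand, protein-coding), which attracts T cells and monocytes, followed the same order. It had 41, 37 and 42 reads with shMed4 #1 and 19, 23 and 22 reads with shMed4 #4, against 8, 15 and 12 reads in NTC. The groups did not overlap. Against NTC the log2 fold change with shMed4 #1 was 1.71 (3.26-fold, SE 0.27, edgeR adjusted p = 1.97e-06) and 0.84 with shMed4 #4 (1.78-fold, SE 0.30, edgeR adjusted p = 0.0185), and the direct difference was -0.87 (SE 0.23, edgeR adjusted p = 0.00414). The call with shMed4 #4 was lost without NTC replicate 1 (edgeR adjusted p = 0.111) or without shMed4 #4 replicate 2 (0.0570), and in DESeq2 (adjusted p = 0.0512).

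Cxcl12 and Cxcl16 are the pair that was higher with shMed4 #1 and lower with shMed4 #4 than in NTC, a pattern that 0.635% of all genes tested showed. Cxcl12 (ENSMUSG00000061353.11, chromosome 6, 117168535 to 117181367, plus strand, protein-coding), the ligand of Cxcr4 and of the scavenging receptor Ackr3, had 67, 73 and 60 reads with shMed4 #1 and 0, 0 and 1 read with shMed4 #4, against 14, 14 and 22 reads in NTC. The 3 groups lay far apart, and a count of 0 allows up to 0.366 and 0.373 CPM in the first 2 shMed4 #4 libraries (3 reads, counting error only). With shMed4 #1 it was 3.82-fold higher than in NTC (log2 fold change 1.93, SE 0.23, edgeR adjusted p = 8.4e-09). With shMed4 #4 the ratio of summed reads, 1 against 50 in NTC, was 0.0196 after scaling (95% counting interval 0.000487 to 0.114, edgeR adjusted p = 3.61e-08). Against shMed4 #1, with 200 reads, it was 0.00511 (0.000129 to 0.0288, edgeR adjusted p = 1.02e-14). These intervals cover counting error only, and the fitted fold changes of Cxcl12 with shMed4 #4 depend on the prior count.

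Cxcl16 (ENSMUSG00000018920.11, chromosome 11, 70453983 to 70459984, minus strand, protein-coding), made as a membrane protein that binds Cxcr6 and is shed by Adam10, had 20, 29 and 25 reads with shMed4 #1 and 2, 2 and 4 reads with shMed4 #4, against 10, 4 and 9 reads in NTC. The shMed4 #1 libraries stood above all others, and the highest shMed4 #4 library, at 0.490 CPM, lay just under the lowest NTC library, at 0.517 CPM. The log2 fold change with shMed4 #1 was 1.61 (3.05-fold, SE 0.34, edgeR adjusted p = 0.000173) and -1.51 with shMed4 #4 (SE 0.55, edgeR adjusted p = 0.0199), and the direct difference was -3.12 (SE 0.43, edgeR adjusted p = 3.87e-07). As a ratio of summed reads, shMed4 #4 stood at 0.341 of NTC (95% counting interval 0.132 to 0.790) and at 0.111 of shMed4 #1 (0.0460 to 0.229). The fall against NTC was lost without NTC replicate 1 (edgeR adjusted p = 0.0935), without NTC replicate 3 (0.0630), without shMed4 #4 replicate 1 (0.0723) and without shMed4 #4 replicate 2 (0.0713). Exons of Zmynd15 on the other strand cover 18.3% of the Cxcl16 exons, and Zmynd15 had 16 reads with shMed4 #1 and 8 with shMed4 #4, against 9 in NTC.

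Among the monocyte attractants, Ccl2 (ENSMUSG00000035385.5, chromosome 11, 82035571 to 82037453, plus strand, protein-coding), the main ligand of Ccr2, fell with both hairpins. Its level was 24.2, 26.9 and 24.6 CPM with shMed4 #1 and 15.1, 13.9 and 11.4 CPM with shMed4 #4, against 38.7, 34.7 and 39.8 CPM in NTC. The 3 groups were separate, with shMed4 #4 lowest. The log2 fold change with shMed4 #1 was -0.58 (0.669 of NTC, SE 0.09, edgeR adjusted p = 2.53e-06) and -1.49 with shMed4 #4 (0.357 of NTC, SE 0.10, edgeR adjusted p = 3.93e-15), and the direct difference was -0.90 (SE 0.11, edgeR adjusted p = 3.21e-08).

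Ccl7 (ENSMUSG00000035373.2, chromosome 11, 82045712 to 82047525, plus strand, protein-coding), which binds Ccr2 and other receptors, starts 10.1 kb from the start of Ccl2 and differed from it in pattern. Its level was 14.3, 12.2 and 11.1 CPM with shMed4 #1 and 10.1, 9.44 and 7.48 CPM with shMed4 #4, against 9.58, 7.10 and 10.1 CPM in NTC. The shMed4 #1 libraries lay above the others, and those of shMed4 #4 and NTC overlapped. With shMed4 #1 the log2 fold change was 0.48 (SE 0.15, edgeR adjusted p = 0.00893), with shMed4 #4 it was 0.01 (95% interval -0.30 to 0.33, edgeR adjusted p = 0.956), and the direct difference was -0.47 (SE 0.15, edgeR adjusted p = 0.0156). The rise with shMed4 #1 was lost without NTC replicate 2 (edgeR adjusted p = 0.0891) or without shMed4 #1 replicate 1 (0.0564). The direct difference was lost without shMed4 #1 replicate 1 (0.0948), without shMed4 #4 replicate 3 (0.114) and in DESeq2 (adjusted p = 0.0566).

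Ccl20 (ENSMUSG00000026166.14, chromosome 1, 83116766 to 83119167, plus strand, protein-coding), the ligand of Ccr6, was close to the filter. It had 10, 18 and 18 reads with shMed4 #1 and 11, 12 and 6 reads with shMed4 #4, against 8, 9 and 12 reads in NTC. All groups overlapped. The log2 fold change with shMed4 #1 was 0.60 (95% interval -0.10 to 1.30, edgeR adjusted p = 0.182) and -0.03 with shMed4 #4 (-0.80 to 0.74, edgeR adjusted p = 0.958), and the direct difference was -0.63 (-1.32 to 0.07, edgeR adjusted p = 0.196). At this depth these intervals hold both no difference and sizeable ones.

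**Figure D2:**
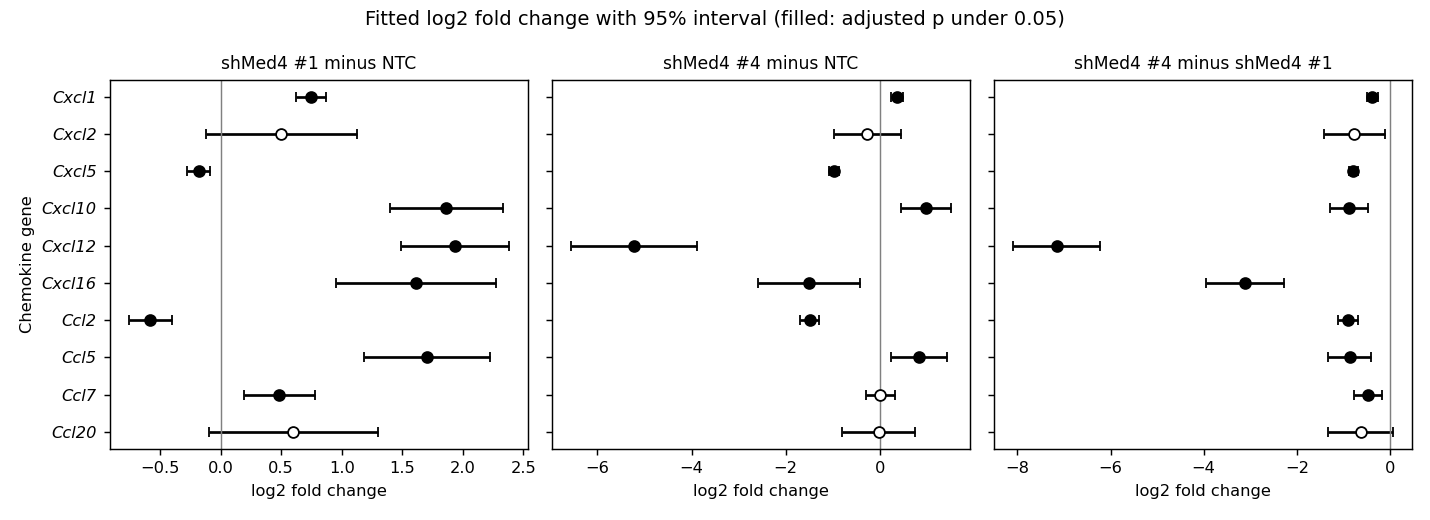
Fitted log2 fold change of each chemokine in the 3 comparisons (x axis, each panel with its own scale), with 95% intervals and filled points where the edgeR adjusted p was under 0.05. All 10 points lie below 0 in shMed4 #4 minus shMed4 #1, and the Cxcl12 points that involve shMed4 #4 rest on 1 read in that group.

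Per length, the order of the levels was led by the same genes in every group. On the RPKM scale (CPM per kb of exon), Cxcl5 stood at 153 ± 6.7 with shMed4 #1 and 88.3 ± 1.7 with shMed4 #4, against 173 ± 2.0 in NTC (SD, n = 3 each). Cxcl1 came next at 95.4 ± 9.6 RPKM with shMed4 #1 and 73.2 ± 3.2 RPKM with shMed4 #4, against 56.9 ± 1.8 RPKM in NTC. Ccl2 followed at 22.2 ± 1.2 RPKM with shMed4 #1 and 11.8 ± 1.7 RPKM with shMed4 #4, against 33.2 ± 2.3 RPKM in NTC, and Ccl7 after it at 15.7 ± 2.0 RPKM with shMed4 #1 and 11.3 ± 1.7 RPKM with shMed4 #4, against 11.1 ± 2.0 RPKM in NTC. With shMed4 #4, Ccl2 and Ccl7 overlapped, whereas in the other groups they did not. The remaining 6 genes had means at or below 5.01 RPKM. In NTC the neighbours Ccl5 and Cxcl2, Cxcl2 and Ccl20, Ccl20 and Cxcl10, and Cxcl16 and Cxcl12 did not differ beyond their spread. With shMed4 #1, Ccl5 and Cxcl10 stood apart and Cxcl2, Ccl20, Cxcl12 and Cxcl16 overlapped in turn, and with shMed4 #4 only Ccl20 and Cxcl2 overlapped among the last 6.

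The summed level of the 10 chemokines was 528 ± 34 CPM with shMed4 #1 and 334 ± 9.1 CPM with shMed4 #4, against 485 ± 8.0 CPM in NTC (SD, n = 3 each). The shMed4 #4 libraries, at 323 to 341 CPM, lay under all others, and shMed4 #1, at 490 to 554 CPM, overlapped NTC, at 476 to 491 CPM. The sum was mostly Cxcl5 and Cxcl1, in changing parts. Cxcl5 made up 53.9 ± 1.2% of it with shMed4 #1 and 49.4 ± 1.6% with shMed4 #4, against 66.5 ± 0.5% in NTC (SD, n = 3 each). Cxcl1 made up 33.8 ± 1.3% with shMed4 #1 and 41.1 ± 1.1% with shMed4 #4, against 21.97 ± 0.71% in NTC. Neither share overlapped between groups.

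**Figure D3:**
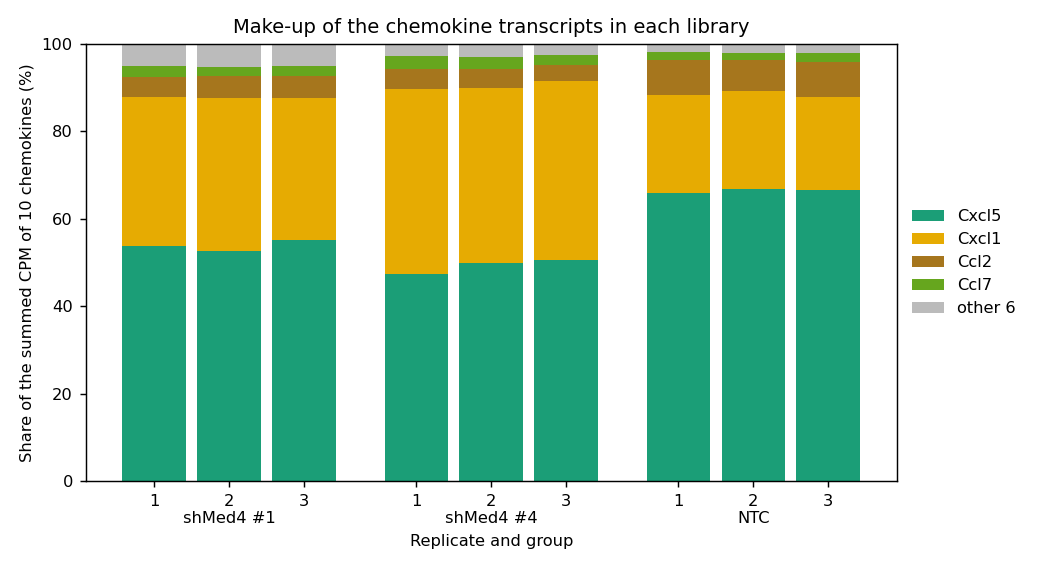
Share of each chemokine in the summed CPM of the 10 genes (y axis, percent) in each of the 9 libraries, with the 6 least abundant genes joined. Cxcl5 takes a mean of 66.5% of the sum in NTC and less in every knockdown library, where Cxcl1 takes more.

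The genes of the CXC cluster on chromosome 5 did not move as a block. Cxcl3, which lies 26.7 kb from the start of Cxcl5 and attracts neutrophils through Cxcr2, had 24.7, 24.8 and 23.0 CPM with shMed4 #1 and 10.4, 6.70 and 10.2 CPM with shMed4 #4, against 13.9, 14.6 and 16.3 CPM in NTC. It was above NTC in all 3 shMed4 #1 libraries and below it in all 3 shMed4 #4 libraries. Its log2 fold change with shMed4 #1 was 0.69 (SE 0.12, edgeR adjusted p = 6.87e-06) and -0.72 with shMed4 #4 (SE 0.14, edgeR adjusted p = 3.76e-05). The promoters of Cxcl1 and Cxcl3 share the run GGGAATTTCCC, and with shMed4 #4 Cxcl1 was higher than in NTC and Cxcl3 lower. The part of that run in either value was not tested. Ppbp and Pf4, between Cxcl5 and Cxcl3, had 72 and 9 reads in all 9 libraries and were not tested. Outside the ligands, Rassf6 on the side of Cxcl5 rose by 2.00 with shMed4 #1 and 2.24 with shMed4 #4, Mthfd2l beyond Cxcl2 changed by -0.51 and -0.65, and Ereg, an EGF receptor ligand, by 0.72 and 1.06 on the log2 scale in the same order of hairpins (all 6 with edgeR adjusted p under 0.05).

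**Figure D4:**
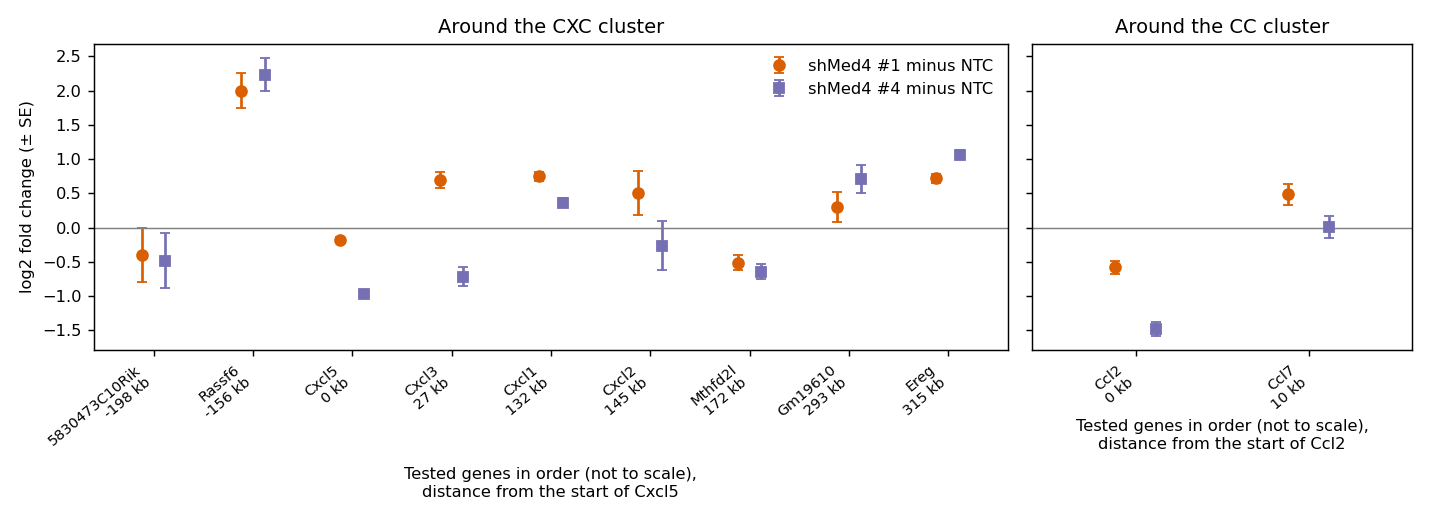
Fitted log2 fold change against NTC (points, bars are the SE) of the tested genes around the CXC cluster and the CC cluster, in gene order and not to scale, with the distance in kb from the start of Cxcl5 or Ccl2. Neighbouring ligands differ: Cxcl5 lies at -0.97 and Cxcl1 at 0.36 with shMed4 #4, and Ccl2 at -1.49 beside Ccl7 at 0.01.

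Across the 9 libraries, which come in 3 groups and are not independent points, log2 CPM of Cxcl1 and Cxcl10 had a Pearson r of 0.96, Cxcl5 and Ccl2 of 0.96, Cxcl12 and Cxcl16 of 0.94 and Cxcl1 and Ccl5 of 0.89. Cxcl1 and Cxcl5, neighbours in the cluster, had an r of -0.14. Of 10135 genes that averaged 5 CPM or more, those most like Cxcl5, the most abundant of the 10, were Siglecg (r = 0.996), Ablim1 (0.993) and Tlr3 (0.992) over the same 9 libraries. With shMed4 #4 minus NTC, Siglecg was at -1.05, Ablim1 at -2.27 and Tlr3 at -1.30 on the log2 scale, beside Cxcl5 at -0.97.

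Few other chemokine ligands were expressed. Of 30 more ligand genes in the files, 9 had no read, 21 had at most 10 reads in all 9 libraries (the 9 included) and 5 were tested. With shMed4 #1, 4 of the 5 were higher (Cxcl3, Ccl9, Ccl17 and Cx3cl1) and 1 lower (Ccl25), with shMed4 #4, 2 were lower than in NTC (Cxcl3 and Cx3cl1), and 2 were lower with shMed4 #4 than with shMed4 #1 (Cxcl3 and Cx3cl1). Over all genes tested, 21.8% were higher and 19.8% lower with shMed4 #1, 27.3% were lower with shMed4 #4, and 13.9% were lower in the direct comparison. The median of the 5 in the direct comparison was -0.63. Cx3cl1, a membrane-bound ligand, had 127, 132 and 123 CPM with shMed4 #1 and 89.6, 85.8 and 71.3 CPM with shMed4 #4, against 87.3, 98.0 and 108 CPM in NTC. The shMed4 #1 libraries stood above all others, and shMed4 #4 overlapped NTC. Its log2 fold change with shMed4 #1 was 0.39 (SE 0.07, edgeR adjusted p = 1.83e-05) and -0.25 with shMed4 #4 (SE 0.07, edgeR adjusted p = 0.00376). Its tested neighbours had median shifts of -0.58 and -0.74 in the same contrasts, and with the local shift removed the value with shMed4 #1 was 0.97 and that with shMed4 #4 turned to 0.50. The call with shMed4 #4 was also lost without NTC replicate 3 (edgeR adjusted p = 0.0595) or shMed4 #4 replicate 3 (0.0916). Ccl9 had a log2 fold change of 0.73 with shMed4 #1 (SE 0.26, edgeR adjusted p = 0.0239), Ccl17 of 1.27 (SE 0.35, 0.0031) and Ccl25 of -0.39 (SE 0.12, 0.0103). The tested neighbours of Ccl17 had a median shift of -0.58 with shMed4 #1, and with that shift removed its value was 1.85. Exons of Elavl1 on the other strand cover 2.74% of the Ccl25 exons. Elavl1 had 2642 reads with shMed4 #1 and 2935 with shMed4 #4, against 2488 in NTC, where Ccl25 had 386, 432 and 486. The call of Ccl9 was lost without NTC replicate 1 (edgeR adjusted p = 0.0674), NTC replicate 2 (0.0584) or shMed4 #1 replicate 2 (0.138), that of Ccl17 without shMed4 #1 replicate 3 (0.0826), and that of Ccl25 without NTC replicate 2 (0.0801) or shMed4 #1 replicate 3 (0.0538). In DESeq2 the call of Ccl9 was also lost (adjusted p = 0.0896). With shMed4 #4, Ccl17 was at 0.81 (SE 0.37, edgeR adjusted p = 0.0636) without overlap with NTC. It passed the threshold in limma-voom (adjusted p = 0.0363), with no filter (0.0336), with only the groups compared (0.0380) and without NTC replicate 2, NTC replicate 3 or shMed4 #1 replicate 2 (0.0402, 0.0442 and 0.0477), and was at 0.40 without NTC replicate 1 (0.380). The highest value of Ccl17 with shMed4 #4 under any alternative was 1.52.

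The receptors of the neutrophil and T cell attractants were near absent from these cells. Over all 9 libraries Cxcr2 had 3 reads, Cxcr4 1 and Ccr2 2, and Cxcr1, Cxcr3 and Ccr6 had none. Of 24 receptors, 6 were tested, 4 of which were higher with shMed4 #1 (Ackr3, Ackr4, Cxcr6 and Cx3cr1) and 1 higher (Ackr3) and 1 lower (Ccr10) with shMed4 #4. These counts stand beside 21.8% of all genes tested higher and 19.8% lower with shMed4 #1. With shMed4 #4 the shares were 27.8% higher and 27.3% lower (55.1% in either direction). Ackr3, the scavenging receptor of Cxcl12, had 35.3, 40.7 and 38.1 CPM with shMed4 #1 and 40.2, 39.7 and 41.2 CPM with shMed4 #4, against 25.9, 31.8 and 34.4 CPM in NTC. Both hairpins lay above NTC without overlap, and they overlapped each other. The log2 fold change of Ackr3 was 0.31 with shMed4 #1 (SE 0.09, edgeR adjusted p = 0.00504) and 0.40 with shMed4 #4 (SE 0.09, edgeR adjusted p = 0.000249), and the direct difference was 0.09 (95% interval -0.08 to 0.25, edgeR adjusted p = 0.483). Without NTC replicate 1 the value with shMed4 #1 was 0.20 (edgeR adjusted p = 0.0861). Ccr10, a receptor of skin-homing lymphocytes, had 4, 8 and 9 reads with shMed4 #4, against 20, 16 and 17 reads in NTC, without overlap. Its log2 fold change was -1.35 (SE 0.36, edgeR adjusted p = 0.0016), and it stayed called under every alternative that gives a p (highest adjusted p = 0.0215). Cxcr6, the receptor of Cxcl16, averaged 1.71 ± 0.44 CPM with shMed4 #1 and 1.27 ± 0.47 CPM with shMed4 #4, against 0.758 ± 0.444 CPM in NTC (SD, n = 3 each), with a log2 fold change of 1.18 with shMed4 #1 (SE 0.43, edgeR adjusted p = 0.0243) that was lost without NTC replicate 3 (0.175) or shMed4 #1 replicate 3 (0.136). The call of Ackr4 with shMed4 #1 (log2 fold change 0.46, edgeR adjusted p = 0.0251) was lost without NTC replicate 1 (0.0663), NTC replicate 2 (0.115) or shMed4 #1 replicate 2 (0.134). That of Cx3cr1 (0.96, edgeR adjusted p = 0.0455) was lost whichever NTC library was left out (0.0656 to 0.124), without shMed4 #1 replicate 1 (0.384) or 2 (0.0807) and without shMed4 #4 replicate 2 (0.0501). In DESeq2 the calls of Cxcr6, Ackr4 and Cx3cr1 with shMed4 #1 were also lost (adjusted p = 0.0807, 0.076 and 0.123). The call of Cx3cr1 was lost as well in limma-voom (adjusted p = 0.131) and with upper-quartile factors (edgeR adjusted p = 0.0534).

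The lists of regulators around the chemokines, also drawn up with earlier results known, are described by counts. Of 18 NF-kB subunits and feedback genes, 10 were higher and 3 lower with shMed4 #1, 4 higher and 7 lower with shMed4 #4, and 1 higher and 10 lower in shMed4 #4 minus shMed4 #1. The subunit gene Nfkb1 fell with both, at -0.32 (SE 0.05, edgeR adjusted p = 4.04e-06) and -0.68 (SE 0.05, edgeR adjusted p = 7.28e-14) on the log2 scale, and Ikbkg, the regulatory subunit of the IkB kinase, likewise at -0.37 and -0.68. Birc3, an inhibitor of apoptosis that acts downstream of TNF receptors, rose by 1.95 and 1.74, and Bcl3, a nuclear partner of NF-kB subunits, by 0.40 and 0.83, in the order shMed4 #1 and shMed4 #4. Over all genes tested, 21.8% were called higher and 19.8% lower with shMed4 #1, 27.8% higher and 27.3% lower with shMed4 #4, and 14.2% higher and 13.9% lower in the direct comparison. The 11 of 18 called with shMed4 #4 stand beside 55.1% of all genes. The list's median was 0.27 with shMed4 #1, -0.10 with shMed4 #4 and -0.26 in the direct comparison, and the median of all genes tested lay near 0 in each.

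Of 18 genes of the interferon axis, 16 were tested. With shMed4 #1, 8 were higher and 0 lower, and with shMed4 #4, 3 were higher and 6 lower. These 8 of 16 and 9 of 16 called stand beside 41.6% and 55.1% of all genes tested. In shMed4 #4 minus shMed4 #1, 1 was higher and 13 lower, with a median of -0.50, beside 28.0% of all genes called. Irf7, a transcription factor of the interferon response, averaged 9.99 ± 0.71 CPM with shMed4 #1 and 2.74 ± 0.29 CPM with shMed4 #4, against 1.55 ± 0.26 CPM in NTC (SD, n = 3 each). It rose by 2.68 with shMed4 #1 (SE 0.22, edgeR adjusted p = 8.04e-13) and by 0.82 with shMed4 #4 (SE 0.29, edgeR adjusted p = 0.0143) on the log2 scale, the order that Cxcl10 and Ccl5 showed. Isg15, a ubiquitin-like protein induced by interferon, averaged 26.9 ± 4.2 CPM with shMed4 #1 and 7.78 ± 1.73 CPM with shMed4 #4, against 10.4 ± 0.4 CPM in NTC. Its log2 fold change with shMed4 #1 was 1.37 (SE 0.13, edgeR adjusted p = 4.24e-11) and -0.42 with shMed4 #4 (SE 0.16, edgeR adjusted p = 0.0293), the order of Cxcl12 and Cxcl16. Gbp2, a guanylate-binding protein, was at 0.25 with shMed4 #1 (edgeR adjusted p = 0.0516) and at -1.70 with shMed4 #4 (SE 0.14, edgeR adjusted p = 2.74e-13), and Irf9 was at 1.03 (edgeR adjusted p = 5.77e-12) and 0.18 (edgeR adjusted p = 0.131).

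Each of the 4 other regulator lists held genes called in both directions with shMed4 #4. Their counts stand beside 21.8% of all genes tested called higher and 19.8% lower with shMed4 #1 (41.6% in either direction). With shMed4 #4 these shares were 27.8% and 27.3% (55.1%), and in the direct comparison 14.2% and 13.9% (28.0%). Of 14 tested cytokines and receptors that induce chemokines, 2 were higher and 4 lower with shMed4 #1, and 3 higher and 4 lower with shMed4 #4. Of 10 factors that degrade or stabilise chemokine mRNA, 4 were higher and 0 lower with shMed4 #1, and 4 higher and 2 lower with shMed4 #4. Of 13 partner transcription factors, 3 were higher and 2 lower with shMed4 #1, and 5 higher and 3 lower with shMed4 #4. In shMed4 #4 minus shMed4 #1 these 3 lists had 2 higher and 4 lower, 3 higher and 3 lower, and 2 higher and 2 lower. Of 9 tested proteases that shed or cleave chemokines, 5 were higher and 3 lower with shMed4 #1, 3 higher and 4 lower with shMed4 #4, and 3 higher and 4 lower in the direct comparison. Within it Mmp2, a gelatinase, rose by 2.62 and 3.59, and Mmp3, a stromelysin, fell at -1.81 and -1.75, on the log2 scale with shMed4 #1 and shMed4 #4.

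**Figure D5:**
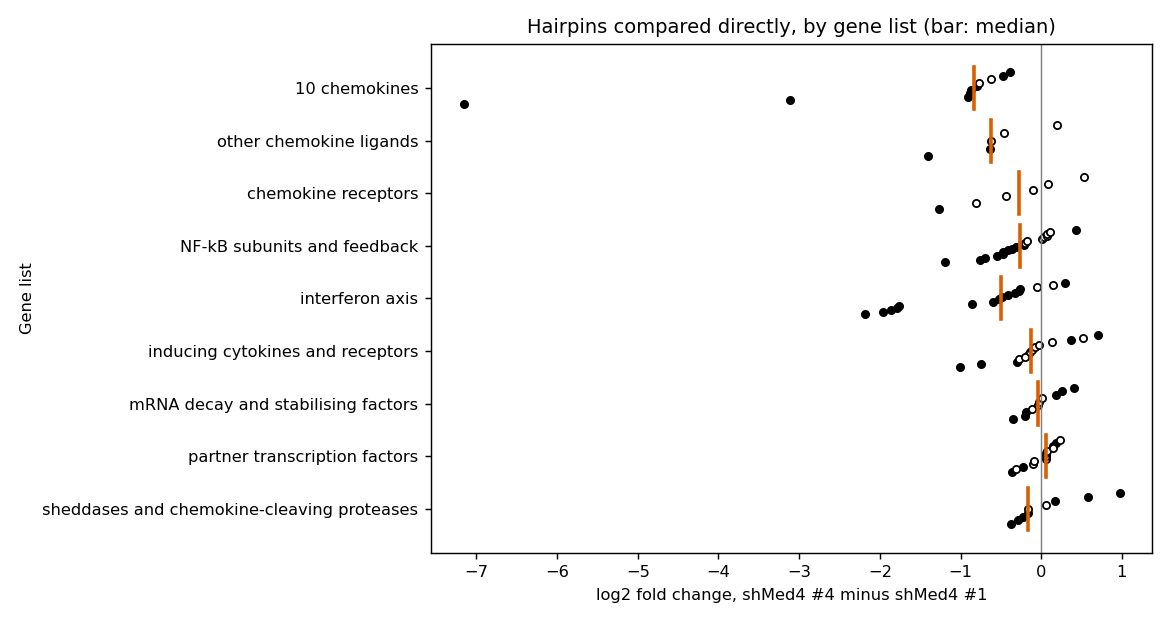
Log2 fold change of shMed4 #4 minus shMed4 #1 (x axis) for each tested gene of 9 lists (points, filled where the edgeR adjusted p was under 0.05), with the list's median as a bar. The 10 chemokines have a median of -0.83, the other chemokine ligands of -0.63 and the interferon axis of -0.50, beside medians within 0.27 of 0 for the NF-kB genes and chemokine receptors.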

How the data were processed

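Total RNA of 9 libraries was sequenced (BGISEQ-500, per the labels). Per the submitters' processing notes, the authors used STAR, HTSeq and the build mm10 (GRCm38). Tool versions, annotation and strand setting: not given in the sources used here. Each deposited file gives raw whole-number counts of reads per gene. Lines that name no gene (no feature 49.5 to 51.6% of records, not unique 10.5 to 11.6%, ambiguous 0.863 to 0.951%) entered neither library sizes nor tests. Reads that aligned in several places add nothing to a gene, so near-identical copies are uncertain.

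Counts were fitted in R 4.3.3 with edgeR 4.0.16: genes kept by filterByExpr (minimum count 10), TMM factors (0.969 to 1.03), 1 quasi-likelihood model of the 3 groups over all 9 libraries, and Benjamini-Hochberg adjustment over 14335 genes with a threshold of 0.05. The minimum was 1.21 CPM in 3 libraries, and all 10 chemokines passed it. Cxcl12 passed with shMed4 #1 and NTC and Cxcl16 mainly with shMed4 #1, so these 2 had to differ somewhere to be low in a group. Among other genes named, S100a8 passed through NTC and Mmp2 through the hairpin groups, so their directions were likewise tied to the filter. The SE is the log2 fold change divided by the square root of F. CPM and RPKM (exon length of GENCODE M21 on GRCm38) use the TMM factors. Of 55335 identifiers, 55154 matched a symbol. Within groups, every pair of libraries differed by more than sampling noise (chi-square over its degrees of freedom, 1.53 to 2.95). Promoters are RefSeq's. The steps were tested on simulated data, and figures were drawn with matplotlib 3.10.9 in Python 3.11.15.

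The members and lists were chosen with earlier results of these data known. Genes named are the 10 chemokines, Med4, every tested ligand and receptor, and the 3 genes most like the most abundant chemokine. From each other list, genes were named among the up to 4 with the smallest adjusted p against NTC. Il6ra, Tnfrsf1b, Ctsl, Mmp9 and Cd79a also met that rule and are not described. Ptprc and other untested markers and receptors, and neighbours in the CXC cluster, were named after their values were seen. Values of 1 gene in the receptor list are not reported here. The alternatives tried were DESeq2 1.42.0, edgeR with DESeq2 size factors or with upper-quartile scaling, limma-voom (limma 3.58.1), no filter, a filter of 1 CPM in 3 libraries, only the groups compared, a replicate block, an adjusted p of 0.01, removal of the local chromosomal shift and leaving out each library. Extending them to Med4 and to the other ligands and receptors was chosen after seeing the data.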

Additional observations from a re-analysis of the deposited data

Results flagged for a closer look

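Of the 10 chemokines, 5 other ligands and 6 receptors tested, 11 genes differed between the hairpins by the direct test, shMed4 #4 minus shMed4 #1. In that fit over all genes, 28.0% of the 14335 genes tested were called in the same comparison. The lists were chosen with earlier results of these data known, so nothing is read from this count. Among the chemokines described above the log2 differences were -0.38 for Cxcl1, -0.79 for Cxcl5, -0.88 for Cxcl10, -7.16 for Cxcl12, -3.12 for Cxcl16, -0.90 for Ccl2, -0.87 for Ccl5 and -0.47 for Ccl7. Their edgeR adjusted p-values lay between 4.29e-15 for Cxcl5 and 0.0156 for Ccl7, and the value of Cxcl12 rests on 1 read with shMed4 #4 and depends on the prior count. Outside the 10, Cxcl3 differed by -1.41 (edgeR adjusted p = 3.48e-11), Cx3cl1 by -0.63 (edgeR adjusted p = 4.46e-09) and its receptor gene Cx3cr1 by -1.27 (edgeR adjusted p = 0.0171). The groups of Cx3cr1 overlapped, and its call was lost in DESeq2 (adjusted p = 0.0606), without shMed4 #1 replicate 1 (edgeR adjusted p = 0.203) and without shMed4 #4 replicate 1 (0.127). The same direct test gave 0.67 for Med4 itself, higher with shMed4 #4 (SE 0.18, edgeR adjusted p = 0.00401). The part of this difference in the chemokine values was not tested.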

How the results depend on the processing

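Of the values of the 10 chemokines in 3 comparisons under up to 19 alternatives, 515 kept their direction and side of the threshold, 15 lost the call, 2 gained it and 7 turned sign. Removing the local chromosomal shift gives no p, and under it all 30 values kept their direction. With each library left out in turn, 5 to 6 chemokines were higher and 2 lower with shMed4 #1, 2 to 3 higher and 3 to 4 lower with shMed4 #4, and 7 to 9 lower and 0 higher in shMed4 #4 minus shMed4 #1. All genes called ranged from 5159 to 6145, 7203 to 8183 and 3262 to 4129 in the same order of comparisons. At an adjusted p of 0.01 the count for shMed4 #4 minus shMed4 #1 was 2573 in place of 4017.

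Apart from Cx3cl1, the values that turned sign had no call. With libraries left out, the log2 fold change of shMed4 #4 minus NTC ranged from -0.56 to 0.11 for Cxcl2, -0.12 to 0.14 for Ccl7, -0.21 to 0.23 for Ccl20, -0.079 to 0.23 for Ccl9 and -0.65 to 0.084 for Cx3cr1. That of shMed4 #1 minus NTC ranged from -0.24 to 0.17 for Cxcr5, and that of shMed4 #4 minus shMed4 #1 from -0.0036 to 0.30 for Ccl25. Upper-quartile factors gave -0.033 for Ccl7 with shMed4 #4 and -0.0084 for Cxcr5 with shMed4 #1. With the local chromosomal shift removed, Cxcr5 was at -0.11 with shMed4 #1 and Cx3cl1 at 0.50 with shMed4 #4.

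Replicate numbers did not pair the libraries: deviations from group means correlated at -0.0586 to 0.0352 over 9 same-numbered pairs and at -0.0747 to 0.0648 over 18 others. With the replicate block, 5828 genes were called for shMed4 #1 minus NTC, 7807 for shMed4 #4 minus NTC and 3859 for shMed4 #4 minus shMed4 #1. All calls of the 10 chemokines held under the block, and the call of Cx3cr1 with shMed4 #1 was lost (edgeR adjusted p = 0.0573). Depth limits Cxcl2, Cxcl10, Cxcl12, Cxcl16, Ccl5 and Ccl20 most, with at most 73 reads in any library. The cause of the changes named here was not tested.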

Other observations

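The genes given here are from the lists of partner transcription factors, inducing cytokines and mRNA decay factors, beside 17.4% of all genes tested that were called higher and 15.8% called lower with both hairpins. Fosl2, an AP-1 subunit, fell with both, at -0.68 with shMed4 #1 (SE 0.05, edgeR adjusted p = 2.71e-13) and -0.76 with shMed4 #4 (SE 0.05, edgeR adjusted p = 4.83e-15) on the log2 scale. Jun, its partner in AP-1, rose by 0.25 with shMed4 #1 (SE 0.06, edgeR adjusted p = 0.00082) and by 0.39 with shMed4 #4 (SE 0.06, edgeR adjusted p = 6.24e-07). Fosl1 averaged 81.4 ± 6.0 CPM with shMed4 #1 and 76.0 ± 5.4 CPM with shMed4 #4, against 55.1 ± 1.1 CPM in NTC (SD, n = 3 each). Nr3c1, the glucocorticoid receptor, changed by -0.29 with shMed4 #1 (edgeR adjusted p = 1.47e-05) and -0.52 with shMed4 #4 (edgeR adjusted p = 7.21e-11). Csf1, the growth factor of macrophages, changed by -0.34 with shMed4 #1 (edgeR adjusted p = 1.84e-07) and -0.64 with shMed4 #4 (edgeR adjusted p = 2.4e-14). Il11, of the same list, averaged 4.69 ± 0.43 CPM with shMed4 #1 and 7.66 ± 0.24 CPM with shMed4 #4, against 4.04 ± 0.95 CPM in NTC (SD, n = 3 each). Among factors that act on chemokine mRNA, Khsrp, which promotes decay, was at -0.02 with shMed4 #1 (edgeR adjusted p = 0.809) and rose by 0.25 with shMed4 #4 (edgeR adjusted p = 5.75e-05). Rc3h2, a roquin, was at -0.13 with shMed4 #1 (edgeR adjusted p = 0.127) and changed by -0.32 with shMed4 #4 (edgeR adjusted p = 0.000151). Zc3h12a, an endonuclease that cleaves inflammatory transcripts, rose by 0.34 with shMed4 #1 (edgeR adjusted p = 0.000803) and by 0.30 with shMed4 #4 (edgeR adjusted p = 0.00188). Zfp36l2, which binds AU-rich elements, was at 0.09 with shMed4 #1 (edgeR adjusted p = 0.184) and rose by 0.49 with shMed4 #4 (edgeR adjusted p = 1.89e-10).

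Of 16 leukocyte markers, 5 were tested, and 4 were lower with shMed4 #1 and 3 with shMed4 #4 than in NTC, beside 19.8% and 27.3% of all genes tested that were lower. A marker that passed the filter on low counts through NTC could only be lower with the hairpins, so nothing is read from these counts. S100a8, a calcium-binding protein of neutrophils, averaged 0.600 ± 0.107 CPM with shMed4 #1 and 0.615 ± 0.216 CPM with shMed4 #4, against 4.20 ± 1.15 CPM in NTC (SD, n = 3 each). The log2 fold changes were -2.78 and -2.75 in the same order. Both hairpin means lay under the filter's minimum of 1.21 CPM. S100a8 was thus tested only because it is high in NTC, and its fall was fixed by that choice. Its partner S100a9 had 0 reads in all 9 libraries.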
